A study of Mus musculus with 16 samples.

Results

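Auxin withdrawal was compared with 2 days of auxin treatment in mouse embryonic stem cells whose DDX10 protein can be degraded on demand. The comparison was between group means from 4 of the 16 mRNA sequencing libraries of the series, with the spread estimated over all 16. It covered every gene with a mean of at least 10 normalized counts over the 16 libraries. This left 13355 of the 14552 genes in the table. The withdrawal group had 2 libraries from cells held for 2 days in auxin and then for 2 days without it. The 2 day group had 2 libraries from cells held for 2 days in auxin. Untreated cells and cells after 1 day in auxin, with 2 libraries each, served as outside points of comparison. All groups were the same E14 line, a widely used laboratory line of embryonic stem cells, with an auxin-inducible degron on Ddx10 and the plant receptor Tir1, so the untreated cells carried both alterations too. All were grown on gelatin in serum with LIF, the GSK3 inhibitor CHIR99021 and the MEK inhibitor PD0325901, and auxin was indole-3-acetic acid at 500 µM. Cells without the tag given auxin were not analysed here, so effects of the auxin itself and effects of DDX10 loss cannot be told apart. A group collected after 4 days in auxin was not analysed here either, so the removal of auxin and the 2 further days in culture cannot be told apart. The question the design asks is which transcripts change once auxin is removed, when newly made DDX10 can persist.

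An auxin-inducible degron is a short plant-derived tag. When auxin is present, TIR1 brings the tagged protein to the cell's ubiquitin ligases and the proteasome destroys it, and washing auxin out lets newly made protein persist. DDX10 is a DEAD-box RNA helicase of the small subunit processome, the nucleolar particle in which 18S rRNA is cut free from its precursor. When ribosome assembly is disturbed, free ribosomal proteins can bind MDM2, the ubiquitin ligase that keeps p53 low, and p53 then raises its target genes. ATF4, a transcription factor of the integrated stress response, raises genes for amino acid synthesis and transfer RNA charging when amino acids are short, and E2F factors drive the genes of DNA replication.

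Promoter stretches of 100 bases are shown for genes that the results turn on, 5′ to 3′ on the strand of the gene, from RefSeq on GRCm38.p6, in lower case with the motif match in capitals. The window searched ran from 250 bases before to 50 bases after the start of each gene, on both strands. The word TGATGNAA, the core of the site bound by ATF4 with a C/EBP partner, was found in 10 of the 29 ATF4 target genes with a promoter in the RefSeq table (34.5%), against 2.56% of 9825 genes tested with a promoter. Chac1, Nupr1 and Trib3 rose after withdrawal and Asns did not pass the test. The stretches lie at chr2:119351003-119351102 (plus strand) for Chac1, chr7:126625527-126625626 (minus strand) for Nupr1, chr2:152344011-152344110 (minus strand) for Trib3 and chr6:7693179-7693278 (minus strand) for Asns.
Chac1: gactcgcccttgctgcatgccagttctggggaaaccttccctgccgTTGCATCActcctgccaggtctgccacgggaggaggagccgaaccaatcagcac
Nupr1: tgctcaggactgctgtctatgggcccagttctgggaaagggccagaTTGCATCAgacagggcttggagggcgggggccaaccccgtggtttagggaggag
Trib3: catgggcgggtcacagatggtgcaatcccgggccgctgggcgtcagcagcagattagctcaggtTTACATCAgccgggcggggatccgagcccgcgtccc
Asns: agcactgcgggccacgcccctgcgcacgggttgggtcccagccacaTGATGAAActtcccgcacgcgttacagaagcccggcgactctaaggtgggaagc

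The word TTTNGCGC, the core of an E2F site, was found in 11 of 38 promoters of genes of G1/S and DNA replication (28.9%), against 2.9% of all. In Mcm6 and Mcm5 the matches on the strands overlap, so the capitals run over both. The stretches lie at chr17:56304082-56304181 (plus strand) for Uhrf1, chr1:128359762-128359861 (minus strand) for Mcm6 and chr8:75109310-75109409 (plus strand) for Mcm5.
Uhrf1: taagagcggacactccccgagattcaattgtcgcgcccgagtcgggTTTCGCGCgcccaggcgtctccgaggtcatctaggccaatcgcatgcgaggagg
Mcm6: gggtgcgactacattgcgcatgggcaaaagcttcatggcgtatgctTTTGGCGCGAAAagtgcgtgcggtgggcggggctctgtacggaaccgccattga
Mcm5: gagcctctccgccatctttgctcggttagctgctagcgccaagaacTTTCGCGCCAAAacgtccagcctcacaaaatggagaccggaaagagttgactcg

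A form of the full p53 site, CATG, any 6 bases and CATG, was found in 1 of 35 promoters of p53 target genes (2.86%), that of Cdkn1a, against 0.356% of all, and many p53 sites are known to lie outside this window. The stretch for Cdkn1a lies at chr17:29090888-29090987 (plus strand). The core GCGTG of the aryl hydrocarbon receptor site was found in 5 of 7 promoters of its pathway (71.4%) but also in 56.9% of all. A match is a stretch of letters and does not show that the factor binds there.
Cdkn1a: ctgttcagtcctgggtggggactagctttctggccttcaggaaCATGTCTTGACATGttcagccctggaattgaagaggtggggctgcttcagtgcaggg

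The table gives each gene's read count after the authors' scaling between libraries, called a normalized count here. The withdrawal libraries summed to 16.6 M and 16.4 M normalized counts and the 2 day libraries to 14.9 M and 14.9 M. From the step between low values they were estimated to hold 14.8 M and 15.4 M reads after withdrawal, against 16.7 M and 16.1 M at 2 days, and all 16 libraries lay between 13.6 M and 17.5 M. The SD of the log2 difference between the libraries of a group was 0.41 after withdrawal and 0.38 at 2 days, against 0.62 in untreated cells and 0.53 at 1 day. The labels leave unsaid whether the replicates of a group were grown apart, so p-values reflect the spread between libraries alone, which may be technical. That spread was estimated over all 16 libraries, so the more variable untreated and 1 day pairs enter the standard errors. The log2 changes had a median standard error of 0.16 at this depth. Gene values are given for every library of a group in replicate order (n = 2 per group). Log2 changes are withdrawal minus 2 days on the scale of log2(value + 1), with standard errors and Benjamini-Hochberg adjusted p-values from limma fitted over all genes. A gene is said to have risen or fallen after withdrawal where its adjusted p was below 0.05.

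Ddx10 (chromosome 9, 53098635 to 53248053 on GRCm38, minus strand) is given first because it is the tagged gene. The degron acts on the protein, so the level of the Ddx10 transcript is no check on the labels. It had 1695 and 1498 after withdrawal, against 997 and 1040.5 at 2 days and 1433 and 1509 in untreated cells (log2 change 0.64 ± 0.11 SE, adjusted p = 0.00034). Its transcript therefore rose after withdrawal by 1.57 times, and the withdrawal libraries lay above those of 2 days without overlap. The same held for 38.3% of all genes. The protein itself was not measured. In bulk RNA of this kind, fewer cells of a type and less RNA per cell cannot be told apart.

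After withdrawal 2960 genes were higher than at 2 days (22.2% of those tested) and 2556 were lower (19.1%). Of these, 628 rose at least 2-fold (4.70%) and 990 fell at least 2-fold (7.41%). The values of the groups did not overlap for 5111 genes that were higher (38.3%) and 4984 that were lower (37.3%), so lack of overlap is common in this comparison. The median log2 change of all genes was 0.0025. The split between directions depends on the scaling. With every library set to the same total, the median of all genes moved to -0.14 and the calls became 2008 higher and 3636 lower, because the withdrawal libraries have the larger normalized totals. Leaving out 1 of the 4 libraries in turn lowered the counts to between 2136 and 2291 higher and between 1740 and 1821 lower. Where that step changed a count by more than 1.5 times, the counts are given without withdrawal replicate 1, withdrawal replicate 2, 2 days replicate 1 and 2 days replicate 2, in this order. Changes of gene groups are therefore given beside the counts over all genes, and those whose balance turned under equal totals are named as such.

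**Figure D1:**
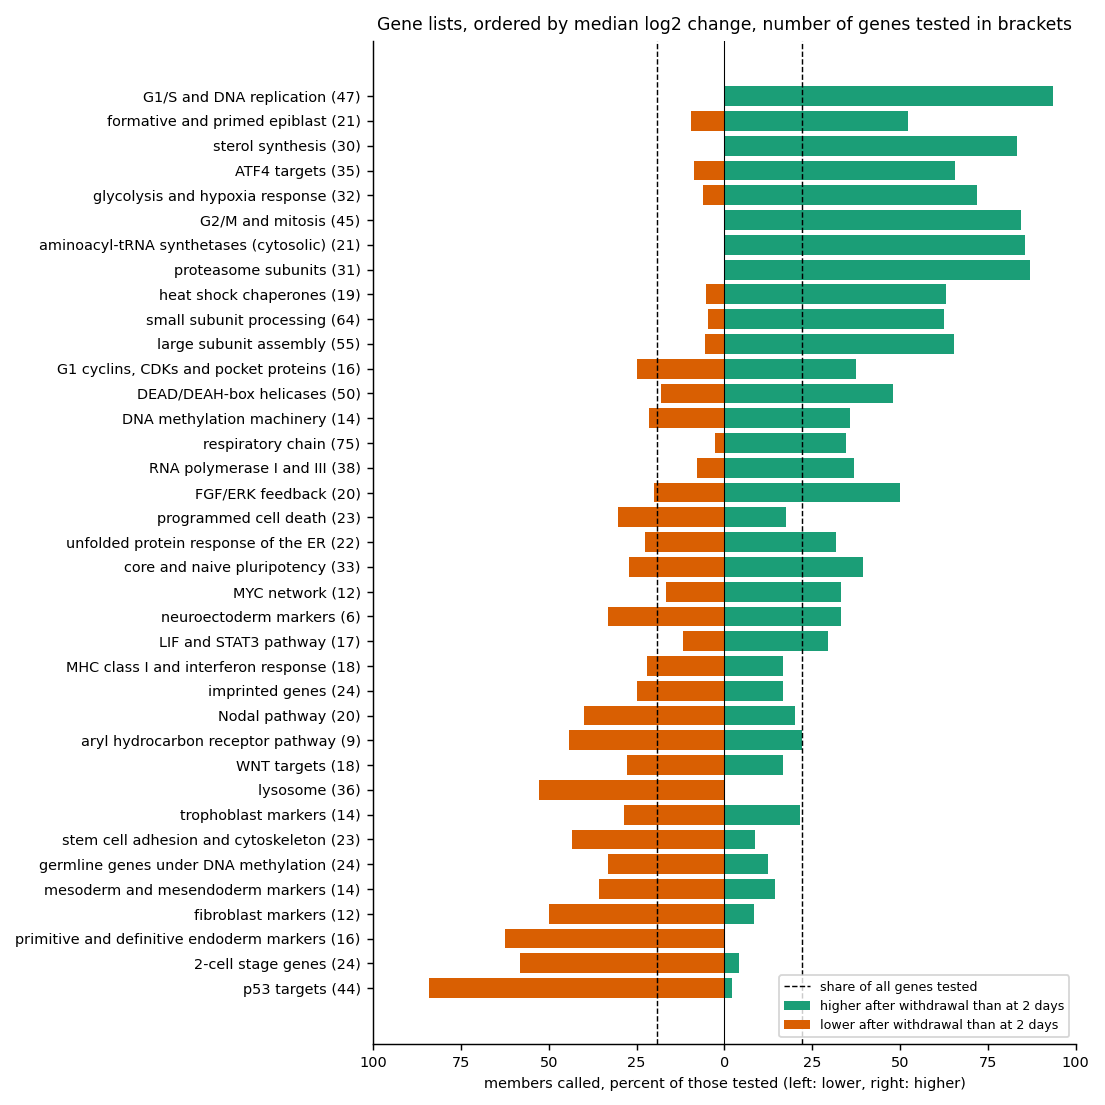
Share of each gene list called higher (right) or lower (left) after withdrawal than at 2 days of auxin, in percent of the members tested, ordered by median log2 change. The dashed lines mark the shares of all genes tested, 22.2% higher and 19.1% lower. The cell cycle, proteasome, sterol and transfer RNA synthetase lists extend far to the right and the p53 list, at 84.1%, far to the left.

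Genes that p53 activates fell almost as a group. Of 44 tested, 37 were lower after withdrawal and 1 was higher, with a median log2 change of -1.32 against 0.0025 over all genes. Cdkn1a, which encodes the cyclin-dependent kinase inhibitor p21 and whose promoter stretch is printed above, had 1365 and 1504 after withdrawal, against 5492 and 5486 at 2 days and 1523 and 1537 in untreated cells (log2 change -1.94 ± 0.078 SE, adjusted p = 3.4e-09). Mdm2, the p53 ligase, had 2421 and 2219 after withdrawal, against 7719.7 and 7623 at 2 days and 2475 and 2434 in untreated cells (log2 change -1.73 ± 0.086 SE, adjusted p = 1.6e-08). In both genes the withdrawal values sat close to the untreated ones and far from those at 2 days. Ccng1, a cyclin G that p53 induces, had 3472 and 3906 after withdrawal, against 11592 and 11056 at 2 days and 4749.6 and 4589 in untreated cells (log2 change -1.62 ± 0.066 SE, adjusted p = 3.4e-09). Plk2, a polo-like kinase, and Perp, a membrane protein of desmosomes and cell death, fell most among the members given here after Tap1. Plk2 had 580.1 and 491 after withdrawal, against 5052 and 4811 at 2 days (log2 change -3.21 ± 0.17 SE, adjusted p = 2.9e-08). Perp had 166 and 167 after withdrawal, against 1312 and 1364 at 2 days (log2 change -3.00 ± 0.18 SE, adjusted p = 6.7e-08). Ptpn14, a tyrosine phosphatase, had 711 and 707 after withdrawal, against 3708 and 3915 at 2 days (log2 change -2.42 ± 0.15 SE, adjusted p = 1e-07). The member that was higher was Ccnd1, the cyclin D1 gene, which is known mainly as a gene of growth signals, with 3954 and 3753 after withdrawal, against 2542 and 2485 at 2 days. Trp53 itself had 8409.9 and 8587 after withdrawal, against 11090 and 10615 at 2 days (log2 change -0.35 ± 0.064 SE, adjusted p = 0.00063), a fall of far smaller size than in its targets. At 1 day against untreated, whose means share no library with the withdrawal comparison, 38 of the 44 were higher and 1 was lower. The median was 1.33, where 15.9% of all genes were higher and 17.7% lower.

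Of 23 genes of programmed cell death, 7 were lower (30.4%) and 4 higher (17.4%), near the 19.1% and 22.2% of all genes (median 0.17), and with equal library totals 8 were lower and 2 higher. Bbc3, which encodes the BH3 protein PUMA, had 221 and 220.1 after withdrawal, against 784 and 655 at 2 days (log2 change -1.70 ± 0.16 SE, adjusted p = 2.5e-06). Apaf1, the core of the apoptosome, had 1003 and 1075 after withdrawal, against 1852 and 2032 at 2 days (log2 change -0.90 ± 0.13 SE, adjusted p = 0.00011). Pmaip1, which encodes NOXA, had 416 and 378 after withdrawal, against 695 and 717 at 2 days (log2 change -0.83 ± 0.19 SE, adjusted p = 0.0037). These 3 are known p53 targets and fell, while Bok, a BCL2 family member, had 372 and 323 after withdrawal, against 146 and 95.7 at 2 days (log2 change 1.54 ± 0.18 SE, adjusted p = 1.3e-05) and rose, and so did Bak1 at 1924 and 1874 after withdrawal, against 1363 and 1211 at 2 days.

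**Figure D2:**
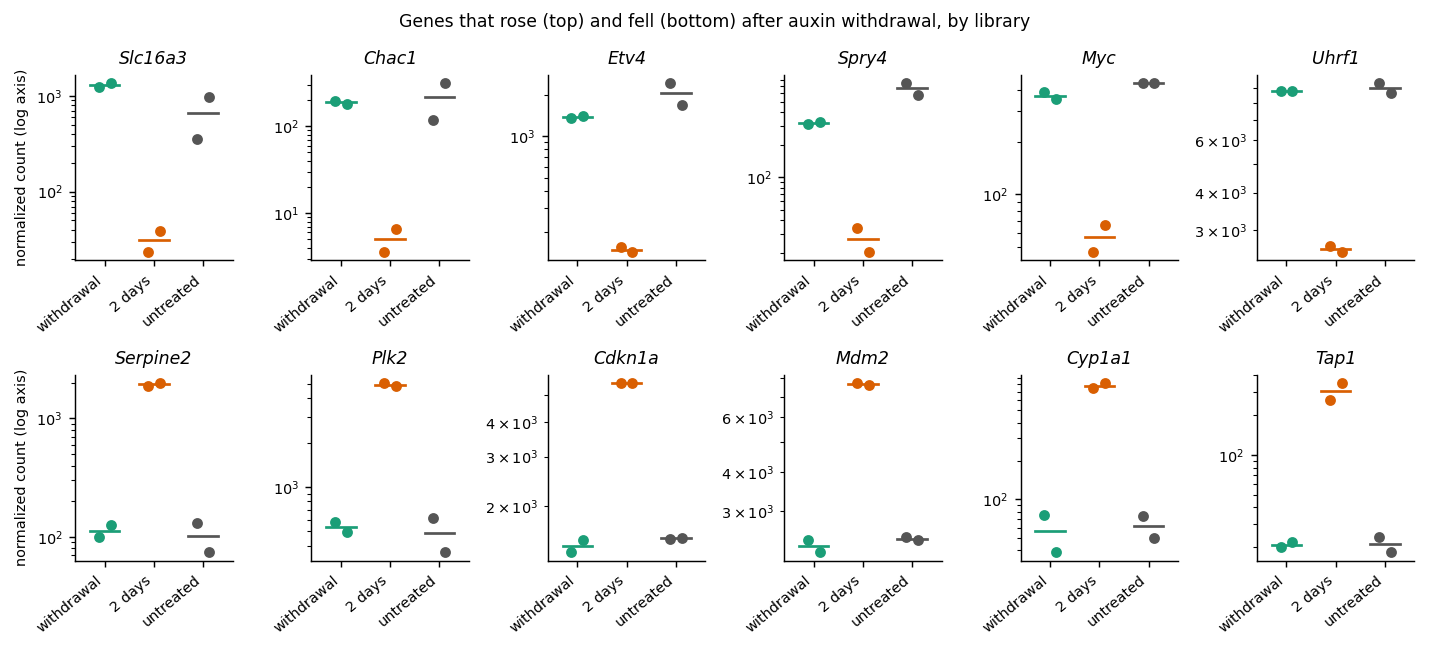
Normalized counts of 12 genes in each library (points, log axis) with group means (lines) after withdrawal, at 2 days of auxin and in untreated cells. The genes were picked from those that rose (top row) or fell (bottom row) after withdrawal, so their positions follow from that choice. None of the 12 overlapped between the withdrawal and 2 day libraries, where 38.3% of all genes were higher and 37.3% lower without overlap.

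DNA replication genes rose together. Of 47 genes of G1/S and replication, 44 were higher after withdrawal and 0 were lower, with a median log2 change of 0.88. Pcna, the sliding clamp of DNA polymerases, had 11483 and 10857 after withdrawal, against 3963 and 3846 at 2 days and 11145 and 11075 in untreated cells (log2 change 1.52 ± 0.061 SE, adjusted p = 3.4e-09). Uhrf1, which brings DNA methyltransferase to newly copied DNA, had 8809 and 8790.5 after withdrawal, against 2642 and 2525 at 2 days and 9358 and 8634 in untreated cells (log2 change 1.77 ± 0.072 SE, adjusted p = 3.4e-09). The untreated and withdrawal values of both genes were close together. Cdc6, which loads the MCM helicase on origins, had 2054 and 1950.2 after withdrawal, against 646 and 719.6 at 2 days (log2 change 1.55 ± 0.088 SE, adjusted p = 3.6e-08), and Mcm10, which helps activate it, had 4141 and 3689.8 after withdrawal, against 1756 and 1749 at 2 days (log2 change 1.16 ± 0.068 SE, adjusted p = 5e-08). Pola2, a subunit of the priming polymerase, had 2585 and 2767 after withdrawal, against 1128 and 1091 at 2 days (log2 change 1.27 ± 0.071 SE, adjusted p = 3.3e-08). Ccne1, the cyclin E1 gene, had 3029 and 2988 after withdrawal, against 1231 and 1133 at 2 days and 4139.8 and 3734 in untreated cells (log2 change 1.35 ± 0.086 SE, adjusted p = 1e-07) and remained below untreated (log2 -0.39, adjusted p = 0.031 in limma). For Ccne1 the difference from untreated did not pass without withdrawal replicate 1 (adjusted p = 0.16), withdrawal replicate 2 (adjusted p = 0.16) or untreated replicate 1 (adjusted p = 0.074). Of the promoters printed above, Mcm6 and Mcm5 belong to genes for subunits of the MCM helicase, which unwinds DNA. Mcm6 had 8992 and 8851 after withdrawal, against 4164 and 4018 at 2 days, and Mcm5 had 11763 and 11675 after withdrawal, against 7199 and 6819.9 at 2 days.

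Mitotic genes followed. Of 45, 38 were higher and 0 lower, with a median of 0.69. Ccnb1, the cyclin B1 gene, had 6099.8 and 5878 after withdrawal, against 3258 and 3088 at 2 days (log2 change 0.92 ± 0.066 SE, adjusted p = 2.5e-07), and its partner Cdk1 had 3077 and 3207 after withdrawal, against 1742 and 1732 at 2 days (log2 change 0.85 ± 0.071 SE, adjusted p = 9.1e-07). Aurkb, the kinase of the chromosomal passenger complex, had 1570.4 and 1658 after withdrawal, against 796 and 768 at 2 days (log2 change 1.04 ± 0.074 SE, adjusted p = 2.3e-07). Kif20a, a cytokinesis kinesin, had 4361 and 4428 after withdrawal, against 2205 and 2221 at 2 days, and the checkpoint gene Bub1b had 5095 and 4941 after withdrawal, against 2524 and 2654 at 2 days. None of these libraries overlapped between the groups, where 38.3% of all genes were higher without overlap. Of 16 G1 cyclins, kinases, inhibitors and pocket proteins, 6 were higher and 4 lower, a balance that became 4 higher and 5 lower with equal totals. As reported, 37.5% were higher and 25% lower, against 22.2% and 19.1% of all genes. Cdk6, a G1 kinase, rose with 275 and 315 after withdrawal, against 112 and 97.01 at 2 days (log2 change 1.49 ± 0.16 SE, adjusted p = 8.4e-06). Members that fell included inhibitors of the cycle. Cdkn2b, which encodes the inhibitor p15, had 69.97 and 53.6 after withdrawal, against 279 and 251 at 2 days (log2 change -2.09 ± 0.21 SE, adjusted p = 4.5e-06). Rb1, the retinoblastoma gene, had 252 and 309 after withdrawal, against 687 and 665 at 2 days, and its relative Rbl2 had 137 and 145 after withdrawal, against 245 and 288 at 2 days, while Rbl1 rose with 872 and 871 after withdrawal, against 543 and 507 at 2 days.

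Myc, the growth-promoting transcription factor, had 386 and 354 after withdrawal, against 46.6 and 67.1 at 2 days and 438 and 435 in untreated cells (log2 change 2.70 ± 0.17 SE, adjusted p = 1e-07), 6.51 times as much after withdrawal as at 2 days. Its 2 day values are the lowest of the 8 groups. Mycn, its relative with the higher normalized counts in these cells, had 2119 and 2110.2 after withdrawal, against 2501 and 2606 at 2 days and did not pass the test (adjusted p = 0.31 in limma). Mxd4, a partner of MAX that opposes MYC, had 58.4 and 68.8 after withdrawal, against 209 and 206 at 2 days (log2 change -1.70 ± 0.29 SE, adjusted p = 0.00043). Over the 12 genes of the MYC network 4 were higher and 2 lower (2, 1, 2 and 1 with 1 library left out), and with equal totals 2 were higher and 3 lower. The reported counts are 33.3% higher and 16.7% lower, against 22.2% and 19.1% of all genes.

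**Figure D3:**
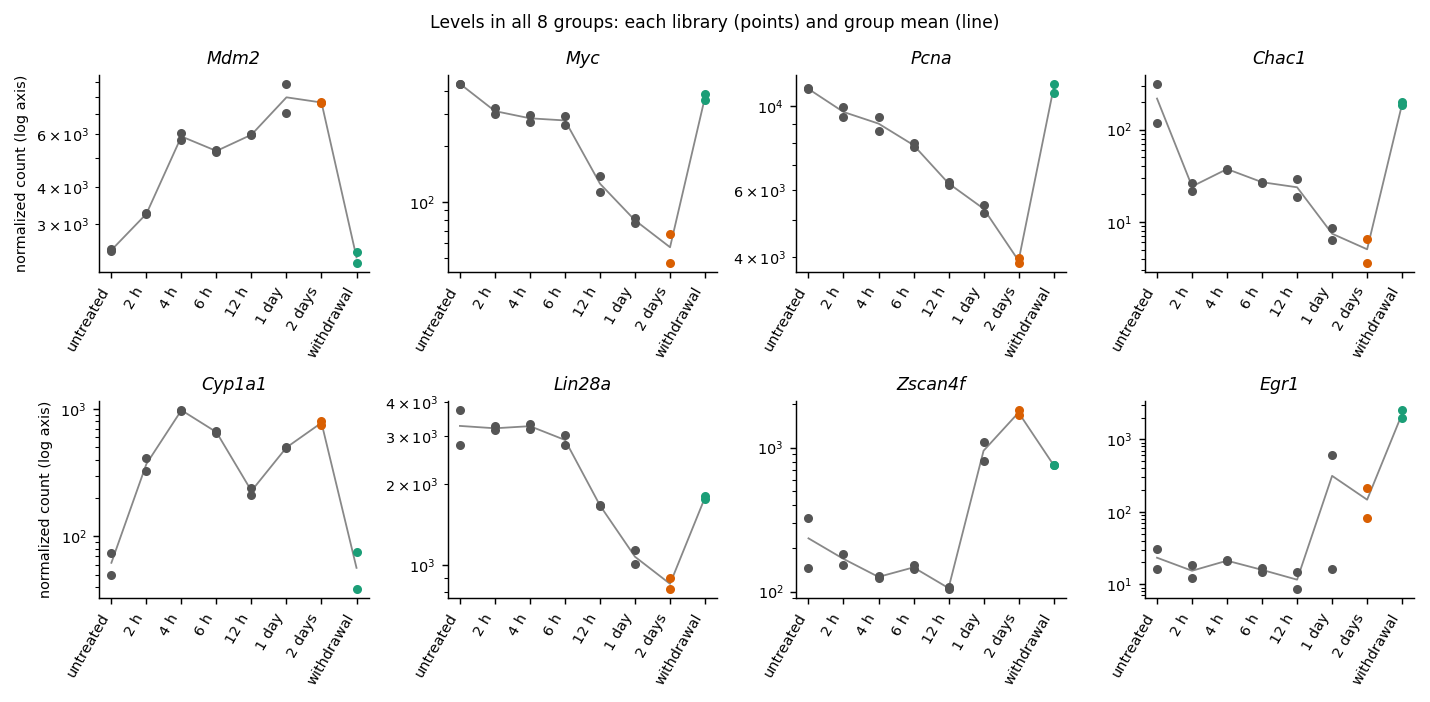
Normalized counts of 8 genes in all 8 groups, in order of time in auxin with withdrawal last (points are libraries, the line joins group means, log axis). Mdm2 and Cyp1a1 are high at 2 days and low after withdrawal, Myc, Pcna and Chac1 are low at 2 days and higher after withdrawal, and Egr1 is highest after withdrawal.

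Genes under ATF4 rose in most cases. Of 35 tested, 23 were higher and 3 lower, with a median of 0.75. Atf4 had 5647 and 4955 after withdrawal, against 3859 and 3513 at 2 days and 4862 and 5904 in untreated cells (log2 change 0.52 ± 0.095 SE, adjusted p = 0.00063). The change was largest in Chac1, which degrades glutathione and carries the printed ATF4-type word, with 197 and 183 after withdrawal, against 3.57 and 6.52 at 2 days and 118 and 316 in untreated cells (log2 change 5.03 ± 0.42 SE, adjusted p = 8.7e-07). Nupr1, a small stress protein with the same word, had 265 and 201 after withdrawal, against 23.4 and 10.6 at 2 days and 220.4 and 271 in untreated cells (log2 change 3.79 ± 0.43 SE, adjusted p = 1.3e-05). Levels of both at 2 days were very low, so the fold changes are on a base of few reads. Trib3, a pseudokinase that restrains ATF4, had 426 and 458 after withdrawal, against 246 and 292 at 2 days (log2 change 0.72 ± 0.14 SE, adjusted p = 0.00095). Asns, which makes asparagine, holds the word too but had 11484 and 11827 after withdrawal, against 10522 and 9968 at 2 days and did not pass (adjusted p = 0.071 in limma).

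Serine and one-carbon synthesis stood among the ATF4 genes that rose. Phgdh, the first enzyme of serine synthesis, had 2345 and 2434 after withdrawal, against 925 and 991 at 2 days and 3601 and 3926 in untreated cells (log2 change 1.32 ± 0.071 SE, adjusted p = 2.9e-08). Psat1, which acts after it, had 6352 and 6029 after withdrawal, against 2090.4 and 2138 at 2 days and 9066 and 8326 in untreated cells (log2 change 1.55 ± 0.08 SE, adjusted p = 2e-08). Both remained below untreated, by log2 -0.65 (adjusted p = 0.00063) and -0.49 (adjusted p = 0.0072) in limma. For Psat1 the difference from untreated did not pass without withdrawal replicate 2 (adjusted p = 0.078). Shmt2, which passes a carbon from serine to folate in mitochondria, had 4754 and 4848 after withdrawal, against 1639 and 1540.2 at 2 days and 4116 and 4612 in untreated cells (log2 change 1.59 ± 0.073 SE, adjusted p = 8.2e-09). Mthfd2, the next mitochondrial folate enzyme, had 1791 and 1706 after withdrawal, against 675 and 602 at 2 days and 1869 and 2442 in untreated cells (log2 change 1.45 ± 0.12 SE, adjusted p = 5.6e-07), and neither of these passed the test against untreated. The 3 members that fell were Ddit3, Ddit4 and Sesn2. Ddit3, which encodes the stress factor CHOP, had 63.2 and 73.6 after withdrawal, against 288 and 297 at 2 days (log2 change -2.08 ± 0.2 SE, adjusted p = 3.4e-06). Ddit4 and Sesn2 encode inhibitors of the growth kinase mTORC1 and are also p53 targets. Ddit4 had 339.9 and 425 after withdrawal, against 1419 and 1414 at 2 days (log2 change -1.90 ± 0.1 SE, adjusted p = 3.1e-08), and Sesn2 had 3041 and 3112 after withdrawal, against 5694 and 5740.1 at 2 days (log2 change -0.89 ± 0.068 SE, adjusted p = 4.2e-07). At 1 day against untreated 26 of the 35 were lower and 4 higher, with a median of -0.90.

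Cytosolic aminoacyl-tRNA synthetases, which charge transfer RNAs, rose in 18 of 21 genes and fell in 0, with a median of 0.65. Nars, for asparagine, had 6835 and 6946 after withdrawal, against 2830.3 and 2771 at 2 days and 7189 and 7558 in untreated cells (log2 change 1.30 ± 0.059 SE, adjusted p = 8.2e-09). Gars, for glycine, had 7946 and 7906 after withdrawal, against 4361 and 4179.5 at 2 days, and Aars, for alanine, had 12531 and 11819 after withdrawal, against 6832 and 6645 at 2 days. Both rose without overlap between the groups, where 38.3% of all genes were higher without overlap.

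Ribosome assembly genes rose in smaller steps. Of 64 genes of small subunit processing, the class to which Ddx10 belongs, 40 were higher (24, 31, 29 and 29 with 1 library left out) and 3 lower, with a median of 0.31. With equal totals 25 were higher and 7 lower, and the median of 0.16 still lay above the -0.14 of all genes. Pno1, a late 18S maturation factor, had 2744 and 2628 after withdrawal, against 1799 and 1746 at 2 days and 2939 and 2669 in untreated cells (log2 change 0.60 ± 0.07 SE, adjusted p = 1.6e-05). Tbl3, a processome WD-repeat protein, had 2222 and 2245 after withdrawal, against 1455 and 1302 at 2 days, Wdr46 had 2501 and 2339 after withdrawal, against 1555 and 1540.2 at 2 days, and Emg1, an rRNA methyltransferase, had 2871 and 2919 after withdrawal, against 2018 and 1946 at 2 days. All 4 rose by similar amounts, with log2 changes of 0.60, 0.70, 0.64 and 0.55. Bop1, which is on this list but is best known for the large subunit, had 2922 and 2962 after withdrawal, against 2054 and 1986 at 2 days. Of 55 genes of large subunit assembly, 36 were higher (23, 27, 24 and 26 with 1 library left out) and 3 lower (median 0.30). The largest of the named changes was in Nop10, a protein of the pseudouridylation particles, with 1786 and 1856 after withdrawal, against 812 and 719 at 2 days (log2 change 1.25 ± 0.11 SE, adjusted p = 1.2e-06). Gnl3, a nucleolar GTPase of stem cells, had 4901 and 4796 after withdrawal, against 3231 and 2996 at 2 days and Ftsj3, an rRNA methyltransferase, had 5668 and 5464 after withdrawal, against 3323 and 3589 at 2 days. Of 38 genes of RNA polymerases I and III 14 were higher and 3 lower (3, 1, 2 and 1 with 1 library left out), a balance that became 8 and 8 with equal totals. Polymerase shares were 36.8% higher and 7.89% lower, against 22.2% and 19.1% of all genes. Polr3g, the polymerase III subunit typical of stem cells, had 1759 and 1700.3 after withdrawal, against 1011 and 1013 at 2 days (log2 change 0.77 ± 0.073 SE, adjusted p = 2.6e-06), while Gtf3c1, a subunit of its factor TFIIIC, had 2881 and 2937 after withdrawal, against 5877 and 5905 at 2 days (log2 change -1.02 ± 0.09 SE, adjusted p = 1.5e-06). Among 50 DEAD and DEAH helicases, 24 were higher (14, 18, 14 and 17 with 1 library left out) and 9 lower, a balance that became 14 and 11 with equal totals. Helicase shares were 48% higher and 18% lower, against 22.2% and 19.1% of all genes. Dhx16, a splicing helicase, fell with 3187 and 3103 after withdrawal, against 8805 and 8078 at 2 days (log2 change -1.42 ± 0.092 SE, adjusted p = 1.1e-07). Ddx58, which encodes the RNA sensor RIG-I, rose with 929 and 862 after withdrawal, against 268 and 339 at 2 days (log2 change 1.57 ± 0.12 SE, adjusted p = 5.8e-07).

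Glycolysis and hypoxia-response genes were higher in 23 of 32 and lower in 2 (2, 1, 1 and 2 with 1 library left out), with a median of 0.72. Slc16a3, the lactate exporter MCT4, rose most of all named genes, with 1232 and 1365 after withdrawal, against 23.5 and 38.8 at 2 days and 359 and 973 in untreated cells (log2 change 5.38 ± 0.37 SE, adjusted p = 2e-07). Tpi1, triosephosphate isomerase, had 6503 and 6569.7 after withdrawal, against 1151 and 1145 at 2 days and 4417 and 5248 in untreated cells (log2 change 2.51 ± 0.098 SE, adjusted p = 3.4e-09). Pkm, pyruvate kinase, had 68866 and 70283 after withdrawal, against 25850 and 25369 at 2 days and 56635 and 63038 in untreated cells (log2 change 1.44 ± 0.059 SE, adjusted p = 3.4e-09). Ldha, lactate dehydrogenase, had 20440 and 21309 after withdrawal, against 6128 and 5637 at 2 days and 18500 and 22516 in untreated cells, Pgk1, phosphoglycerate kinase, had 16188 and 15934 after withdrawal, against 4896 and 4576 at 2 days and 12845 and 15812 in untreated cells, and Pfkp, a phosphofructokinase, had 6481 and 6816 after withdrawal, against 1754 and 1937 at 2 days and 4568 and 5396 in untreated cells. The pathway thus moved in its early and late steps alike, with log2 changes of 1.85 for Pfkp and 1.83 for Ldha. Slc2a3, a glucose transporter, fell with 19247 and 19477 after withdrawal, against 33245 and 34701 at 2 days (log2 change -0.81 ± 0.08 SE, adjusted p = 3.7e-06).

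This list also differed from untreated cells, in 11 of 32 genes that were higher and 0 lower, where 1.72% of all genes were higher and 1.07% lower. Ndrg1, a hypoxia-induced gene, had 441 and 508 after withdrawal, against 171 and 160.5 at 2 days and 128 and 179.6 in untreated cells (log2 against untreated 1.64, adjusted p = 0.00026 in limma). Bnip3, a mitophagy receptor, had 1074 and 1214 after withdrawal, against 151 and 147 at 2 days and 338 and 645 in untreated cells (log2 against untreated 1.29, adjusted p = 0.019). For Bnip3 the difference from untreated did not pass without withdrawal replicate 1 (adjusted p = 0.097) or withdrawal replicate 2 (adjusted p = 0.14). Egln3, an oxygen-sensing hydroxylase, had 329 and 335 after withdrawal, against 98.6 and 95.4 at 2 days and 150.2 and 171 in untreated cells, and Aldoc, an aldolase, had 269 and 281 after withdrawal, against 77.7 and 66.7 at 2 days and 49.98 and 101 in untreated cells. In these 4 genes the withdrawal libraries stood above both other groups. The count of 11 fell to 2 without withdrawal replicate 1 and to 1 without withdrawal replicate 2, and was 9 and 12 without untreated replicates 1 and 2, while the median against untreated stayed between 0.21 and 0.32. The comparisons with 2 days and with untreated share the withdrawal libraries.

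**Figure D4:**
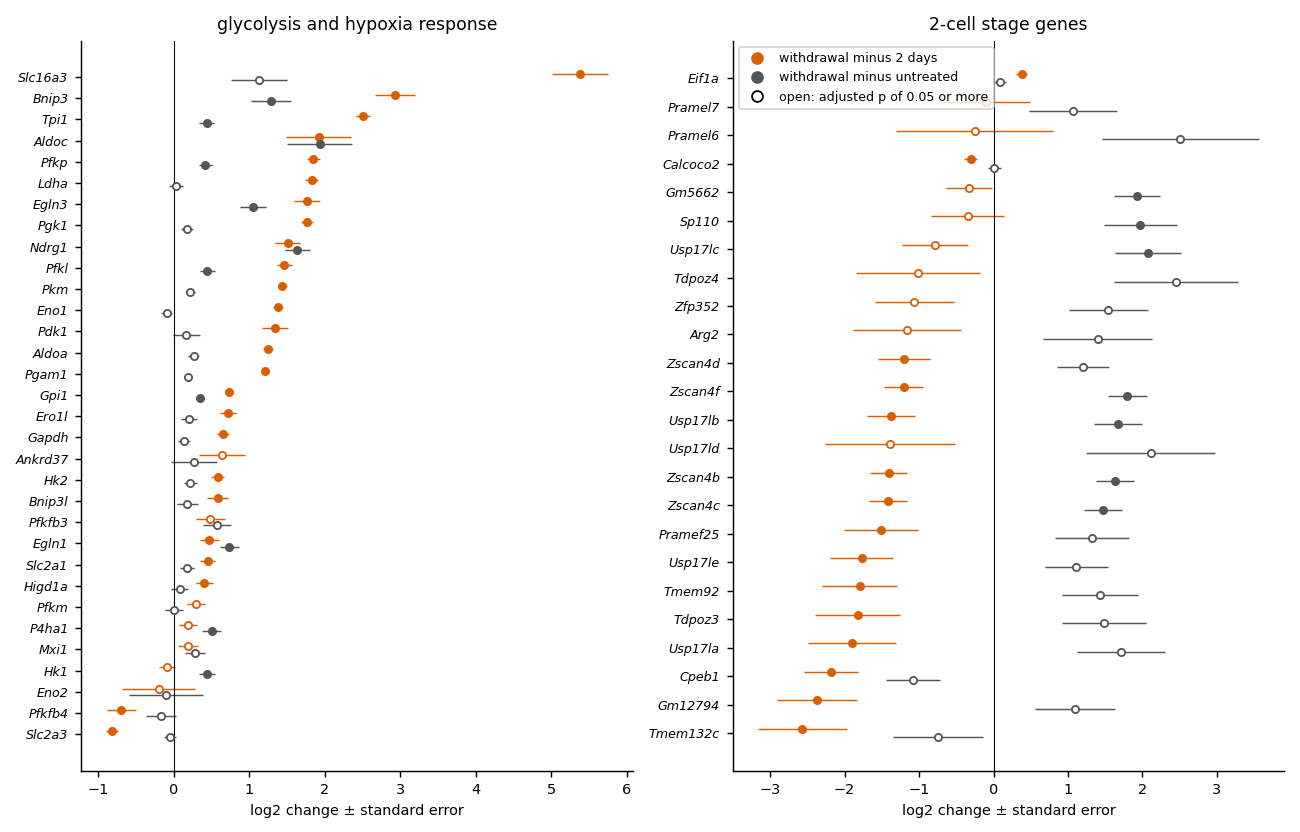
Log2 change with standard error for each member of the glycolysis and hypoxia list (left) and the 2-cell list (right), as withdrawal minus 2 days and withdrawal minus untreated. Open points did not pass the test. In the left panel most points of both kinds lie to the right of 0, and in the right panel the points against 2 days lie to the left of 0 for 14 called genes while those against untreated lie to the right for 7.

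Sterol and fatty acid synthesis rose in 25 of 30 genes and fell in 0 (median 0.77). Idi1, an enzyme of isoprenoid synthesis, had 2918 and 2808 after withdrawal, against 699 and 666 at 2 days and 2734 and 3299.8 in untreated cells (log2 change 2.07 ± 0.11 SE, adjusted p = 3e-08). Scd1, a desaturase of fatty acids, had 4124 and 4257 after withdrawal, against 1596 and 1603 at 2 days and 2310.5 and 2781 in untreated cells (log2 change 1.39 ± 0.09 SE, adjusted p = 1.1e-07). Scd1 also ended above untreated (log2 0.72, adjusted p = 0.0015 in limma), as did Insig1, a sensor of the sterol pathway, with 1908 and 1759 after withdrawal, against 1036 and 957 at 2 days and 1413 and 1304 in untreated cells. For Insig1 the difference from untreated did not pass without withdrawal replicate 1 (adjusted p = 0.11). Hmgcs1, the synthase that feeds the pathway, had 3928 and 4192 after withdrawal, against 2373 and 2403 at 2 days, and Cyp51, which removes a methyl group from lanosterol, had 1437 and 1442 after withdrawal, against 796 and 799.9 at 2 days.

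Proteasome subunits rose in 27 of 31 genes and fell in 0 (median 0.58). Psmd1, of the regulatory particle, had 9494 and 9429 after withdrawal, against 5241 and 5296 at 2 days (log2 change 0.84 ± 0.07 SE, adjusted p = 8.4e-07), and Psma1, of the core, had 4615 and 4510.3 after withdrawal, against 2772 and 2642 at 2 days (log2 change 0.75 ± 0.069 SE, adjusted p = 1.8e-06). Lysosome genes moved the other way, with 0 of 36 higher and 19 lower (median -0.41). Ctsd, the protease cathepsin D, had 3616 and 3444 after withdrawal, against 9344 and 9482 at 2 days (log2 change -1.42 ± 0.14 SE, adjusted p = 3.6e-06). Tpp1, a lysosomal peptidase, had 886 and 876 after withdrawal, against 2230.5 and 2192 at 2 days, and Man2b1, a mannosidase, had 522 and 564 after withdrawal, against 1213 and 1253 at 2 days. The protein-degrading systems thus went in opposite directions. Chaperones of the heat shock class rose in 12 of 19 and fell in 1. Hspa8, the constitutive HSP70, had 65194 and 64261 after withdrawal, against 40364 and 39687 at 2 days (log2 change 0.69 ± 0.061 SE, adjusted p = 1.5e-06), and Hspd1, the mitochondrial chaperonin, had 25992 and 24867 after withdrawal, against 15503 and 15611 at 2 days. The exception was Cryab, a small heat shock protein, with 37.4 and 33.3 after withdrawal, against 240.4 and 238 at 2 days (log2 change -2.73 ± 0.25 SE, adjusted p = 2e-06). Of 75 respiratory chain genes 26 were higher (15, 22, 21 and 13 with 1 library left out) and 2 lower (1, 2, 1 and 2 with 1 library left out), a balance that became 14 and 11 with equal totals. Respiratory shares were 34.7% higher and 2.67% lower, against 22.2% and 19.1% of all genes. Of 22 genes of the unfolded protein response 7 were higher (5, 5, 4 and 5 with 1 library left out) and 5 lower (3, 3, 4 and 3 with 1 library left out), and 5 and 8 with equal totals. For the unfolded protein response the reported shares were 31.8% higher and 22.7% lower, against 22.2% and 19.1% of all genes. Manf, a factor of the endoplasmic reticulum, rose with 2356 and 2443 after withdrawal, against 1426 and 1408 at 2 days, and Canx, the lectin chaperone calnexin, fell with 10465 and 9519 after withdrawal, against 15709 and 16875 at 2 days.

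The core pluripotency factors moved little. Pou5f1, which encodes OCT4, had 25252 and 24788 after withdrawal, against 18902 and 17659 at 2 days and 23171 and 22339 in untreated cells (log2 change 0.45 ± 0.074 SE, adjusted p = 0.00027). Sox2 had 9835 and 9931 after withdrawal, against 8490.3 and 8452 at 2 days and 8893 and 9555 in untreated cells (log2 change 0.22 ± 0.071 SE, adjusted p = 0.023). Nanog had 14930 and 15023 after withdrawal, against 17573 and 16833 at 2 days and 15332 and 14325 in untreated cells (log2 change -0.20 ± 0.063 SE, adjusted p = 0.021), so the first 2 rose and the third fell, each by well under 2-fold. The Nanog call was lost without withdrawal replicate 1 (adjusted p = 0.094), withdrawal replicate 2 (0.079) or 2 days replicate 1 (0.13), and the Sox2 call was lost without any 1 of the 4 libraries (adjusted p between 0.081 and 0.096). With equal totals the log2 changes were 0.31 for Pou5f1, 0.08 for Sox2 and -0.35 for Nanog, and Sox2 no longer passed (adjusted p = 0.41). Zfp42, the naive marker REX1, had 10372 and 10379 after withdrawal, against 9094 and 8505 at 2 days (log2 change 0.24 ± 0.059 SE, adjusted p = 0.0056), and its call was lost without 2 days replicate 2 (adjusted p = 0.068). Klf4 had 4006 and 3788 after withdrawal, against 5377 and 5464 at 2 days (adjusted p = 0.052) and Esrrb had 17886 and 17757 after withdrawal, against 18850 and 19178 at 2 days (adjusted p = 0.53), so neither naive factor passed the limma test. Over 33 genes of core and naive pluripotency 13 were higher and 9 lower (5, 4, 5 and 6 with 1 library left out), and with equal totals 9 and 12. Pluripotency shares were 39.4% higher and 27.3% lower, against 22.2% and 19.1% of all genes. Larger changes were in members around the core. Utf1, a chromatin factor of stem cells, had 5159 and 5234 after withdrawal, against 2278 and 2061 at 2 days and 5013 and 4489.7 in untreated cells (log2 change 1.26 ± 0.085 SE, adjusted p = 1.6e-07). L1td1, an RNA-binding protein, had 10593 and 8579.5 after withdrawal, against 3504 and 4108 at 2 days and 8547 and 11093 in untreated cells (log2 change 1.33 ± 0.12 SE, adjusted p = 1.3e-06). Lin28a, which blocks let-7 maturation, had 1764 and 1802 after withdrawal, against 814 and 894 at 2 days and 2794 and 3757 in untreated cells (log2 change 1.06 ± 0.11 SE, adjusted p = 6.7e-06) and stayed below untreated (log2 -0.86, adjusted p = 0.0018). Fgf4 fell, with 2962 and 2958 after withdrawal, against 4457 and 4379 at 2 days (log2 change -0.58 ± 0.058 SE, adjusted p = 4.1e-06).

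Genes of the formative and primed epiblast, the states that follow the naive one, were higher in 11 of 21 and lower in 2 (median 0.78). Epiblast shares were 52.4% higher and 9.52% lower, against 22.2% and 19.1% of all genes. Etv4, an ETS factor downstream of ERK, had 1359 and 1402 after withdrawal, against 156 and 144 at 2 days and 2428 and 1685 in untreated cells (log2 change 3.19 ± 0.16 SE, adjusted p = 1.6e-08). Dnmt3b, a de novo DNA methyltransferase, had 2939 and 2661 after withdrawal, against 1409 and 1438 at 2 days and 2732 and 3254 in untreated cells (log2 change 0.97 ± 0.084 SE, adjusted p = 1.2e-06). Foxd3 rose, with 924 and 927 after withdrawal, against 536 and 509 at 2 days. Nodal, the TGF-beta ligand, fell with 1306 and 1151 after withdrawal, against 2125 and 2198 at 2 days (log2 change -0.82 ± 0.098 SE, adjusted p = 2e-05), while its target and inhibitor Lefty2 rose with 2330.2 and 2381 after withdrawal, against 889.6 and 975 at 2 days and 835 and 1374 in untreated cells (log2 change 1.34 ± 0.19 SE, adjusted p = 1e-04). Lefty2 stood above untreated as well (log2 1.14, adjusted p = 0.008). For Lefty2 the difference from untreated did not pass without withdrawal replicate 1 (adjusted p = 0.072) or withdrawal replicate 2 (adjusted p = 0.074). Of 20 Nodal pathway genes 4 were higher and 8 lower (5, 7, 6 and 5 with 1 library left out). In percent, 20% were higher and 40% lower, against 22.2% and 19.1% of all genes.

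FGF and ERK feedback genes were higher in 10 of 20 (6, 9, 9 and 6 with 1 library left out) and lower in 4. Feedback shares were 50% higher and 20% lower, against 22.2% and 19.1% of all genes. Spry4, a feedback inhibitor of the pathway, had 312 and 328 after withdrawal, against 33.7 and 20.3 at 2 days and 748 and 584 in untreated cells (log2 change 3.56 ± 0.23 SE, adjusted p = 1.3e-07). Spred1, a related inhibitor, had 980.0 and 1009 after withdrawal, against 490.5 and 505 at 2 days and 1205 and 1374 in untreated cells (log2 change 1.00 ± 0.091 SE, adjusted p = 1.8e-06). Both rose but remained below untreated, with log2 -1.05 (adjusted p = 0.031) and -0.37 (adjusted p = 0.046) in limma. For Spry4 the difference from untreated did not pass without withdrawal replicate 1 (adjusted p = 0.18), withdrawal replicate 2 (adjusted p = 0.14) or untreated replicate 1 (adjusted p = 0.079). For Spred1 it did not pass without withdrawal replicate 1 (adjusted p = 0.24), withdrawal replicate 2 (adjusted p = 0.17) or untreated replicate 2 (adjusted p = 0.17). Egr1, an immediate early factor under ERK, behaved otherwise, with 2559 and 1960.1 after withdrawal, against 212 and 82.4 at 2 days and 30.3 and 16.2 in untreated cells (log2 change 4.07 ± 1.1 SE, adjusted p = 0.0081). Its withdrawal values lie above both other groups, and the 2 day libraries differ from each other by more than 2-fold. The change from 2 days missed the threshold without withdrawal replicate 1 (log2 3.88, adjusted p = 0.05 after rounding) and without 2 days replicate 2 (log2 3.40, adjusted p = 0.074). Fos, another immediate early gene, had 617 and 577 after withdrawal, against 669 and 649 at 2 days and 168 and 75.03 in untreated cells and did not pass the test against 2 days (adjusted p = 0.78). Fgfr1, a receptor, fell with 2094 and 2390.5 after withdrawal, against 3486 and 3550.4 at 2 days. The culture medium held a MEK inhibitor in every group.

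DNA methylation genes were higher in 5 of 14 and lower in 3 (1, 1, 2 and 1 with 1 library left out). This was 35.7% higher and 21.4% lower, against 22.2% and 19.1% of all genes. Besides Uhrf1 and Dnmt3b above, Dnmt3l, the cofactor of the de novo enzymes, had 3450.1 and 3453 after withdrawal, against 988 and 1022 at 2 days and 3614 and 5419.8 in untreated cells (log2 change 1.78 ± 0.28 SE, adjusted p = 0.00022), and Dnmt1, the maintenance enzyme, had 9086 and 8768 after withdrawal, against 6095 and 6482 at 2 days (log2 change 0.51 ± 0.097 SE, adjusted p = 0.00093). Dppa3, which keeps UHRF1 out of the nucleus and is a naive marker, went the other way, with 36.1 and 40.7 after withdrawal, against 256 and 248 at 2 days and 54.5 and 14.2 in untreated cells (log2 change -2.68 ± 0.62 SE, adjusted p = 0.0036). Methylation itself was not measured. Of 24 germline genes known to be silenced by DNA methylation 3 were higher (2, 2, 2 and 1 with 1 library left out) and 8 lower (6, 5, 4 and 6 with 1 library left out), among them Dazl, with 202 and 274 after withdrawal, against 429 and 426 at 2 days (log2 change -0.86 ± 0.19 SE, adjusted p = 0.0025). Germline shares were 12.5% higher and 33.3% lower, against 22.2% and 19.1% of all genes. Of 24 imprinted genes 4 were higher (3, 2, 3 and 3 with 1 library left out) and 6 lower. The imprinted shares, 16.7% higher and 25% lower, lie near the 22.2% and 19.1% of all genes. Igf2r, a maternally expressed receptor, fell with 1534 and 1461 after withdrawal, against 3401 and 3723 at 2 days (log2 change -1.25 ± 0.088 SE, adjusted p = 2.3e-07), and Nnat, a paternally expressed gene, rose with 153 and 152 after withdrawal, against 23.02 and 33.8 at 2 days (log2 change 2.41 ± 0.25 SE, adjusted p = 5.7e-06).

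Genes of the 2-cell stage embryo, which a small share of stem cells express at a time, fell in 14 of 24 (10, 9, 9 and 9 with 1 library left out) and rose in 1, with a median of -1.29. Zscan4c, a zinc finger gene of this stage, had 416 and 495 after withdrawal, against 1301 and 1131 at 2 days and 228 and 117 in untreated cells (log2 change -1.42 ± 0.26 SE, adjusted p = 0.00062). Zscan4f had 755 and 759 after withdrawal, against 1829.9 and 1672 at 2 days and 324 and 145 in untreated cells (log2 change -1.21 ± 0.27 SE, adjusted p = 0.0025), and Zscan4b had 282 and 261 after withdrawal, against 771 and 679 at 2 days and 116 and 65.2 in untreated cells (log2 change -1.41 ± 0.25 SE, adjusted p = 6e-04). In each the withdrawal libraries lay between the 2 day and the untreated libraries. Against untreated 7 of the 24 were higher and 0 lower, among them Zscan4f (log2 1.80, adjusted p = 0.0043). That count was 1 and 2 without withdrawal replicates 1 and 2, and 15 and 4 without untreated replicates 1 and 2, whose Zscan4f values differ by more than 2-fold. Members of the Zscan4 family are near-identical copies, so the division of reads between them is uncertain.

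Among markers of other cell types, the endoderm and fibroblast lists had the largest shares that fell, where 19.1% of all genes were lower and 22.2% higher. Of 16 markers of primitive and definitive endoderm 0 were higher and 10 lower, and the summed level of the list was 24235 and 24048 after withdrawal, against 33900 and 36144 at 2 days. The members that fell were led by basement membrane genes. Serpinh1, a collagen chaperone, had 211 and 193 after withdrawal, against 1226 and 1291 at 2 days and 381 and 368 in untreated cells (log2 change -2.64 ± 0.14 SE, adjusted p = 2.2e-08). Col4a1, a chain of collagen IV, had 924 and 963 after withdrawal, against 3011 and 3338 at 2 days and 639.7 and 356 in untreated cells (log2 change -1.75 ± 0.19 SE, adjusted p = 9.6e-06), and Lama1, a laminin chain, had 1065 and 979.9 after withdrawal, against 2491 and 2733 at 2 days and 1213 and 427 in untreated cells (log2 change -1.35 ± 0.3 SE, adjusted p = 0.0027). The defining factors Sox17, Sox7 and Foxa1 were below the minimum mean of 10. Trophoblast markers were lower in 4 of 14 (28.6%) and higher in 3 (21.4%), with summed levels of 3157 and 3229 after withdrawal and 5396 and 5315 at 2 days. Tfap2c, which is also a germ cell and naive factor, had 394 and 394 after withdrawal, against 1775 and 1647 at 2 days (log2 change -2.12 ± 0.19 SE, adjusted p = 1.9e-06). Gata2 had 24.6 and 25.5 after withdrawal, against 132 and 142 at 2 days, Krt19 had 9.77 and 4.28 after withdrawal, against 82.4 and 104 at 2 days, and Krt8 rose with 662 and 670.4 after withdrawal, against 245 and 279 at 2 days. Fibroblast markers were lower in 6 of 12 and higher in 1, and fibronectin, Fn1, which stem cells make too, had 32994 and 34216 after withdrawal, against 53121 and 60366 at 2 days. Mesoderm markers were lower in 5 of 14 (3, 3, 3 and 1 with 1 library left out) and higher in 2, and Bmp4, a ligand of the BMP pathway, rose with 153 and 119.5 after withdrawal, against 40.5 and 43.8 at 2 days. Of 6 neuroectoderm genes 2 were lower and 2 higher (1, 1, 1 and 1 with 1 library left out), and Neurod1, a neuronal factor, had 26.9 and 22.4 after withdrawal, against 168 and 189.8 at 2 days (log2 change -2.81 ± 0.23 SE, adjusted p = 8.4e-07). Among the mesoderm markers Bmp4 had the highest log2 change, 1.66, while that list had a median of -0.62 and a lowest value of -2.17. The part that cells of other types had in the other results was not tested.

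Cell adhesion genes fell in 10 of 23 (43.5%) and rose in 2 (8.7%), against 19.1% lower and 22.2% higher over all genes. Cdh1, E-cadherin, had 7258 and 7426 after withdrawal, against 14212 and 15311 at 2 days and 6488 and 5688 in untreated cells (log2 change -1.01 ± 0.081 SE, adjusted p = 6.5e-07). Cdh3, P-cadherin, had 260.4 and 238 after withdrawal, against 1232 and 1265 at 2 days and 179.7 and 259.8 in untreated cells (log2 change -2.32 ± 0.21 SE, adjusted p = 1.7e-06), and Cldn4, a tight junction claudin, had 1205 and 1211 after withdrawal, against 3289 and 3367 at 2 days (log2 change -1.46 ± 0.13 SE, adjusted p = 2e-06). Icam1, an adhesion molecule of the immunoglobulin class, had 527 and 515 after withdrawal, against 1894 and 1816 at 2 days. All 4 fell without overlap between the groups, where 37.3% of all genes were lower without overlap. Among 18 genes of antigen presentation and interferon 3 were higher (1, 1, 2 and 2 with 1 library left out) and 4 lower. Their shares, 16.7% higher and 22.2% lower, lie near the 22.2% and 19.1% of all genes. Tap1, a peptide transporter for MHC class I and a p53 target, had 19.99 and 21.9 after withdrawal, against 260.4 and 349 at 2 days and 23.7 and 18.3 in untreated cells (log2 change -3.79 ± 0.31 SE, adjusted p = 7.4e-07), and Ifitm1 had 1212 and 1312 after withdrawal, against 3302 and 3272 at 2 days (log2 change -1.38 ± 0.086 SE, adjusted p = 9.5e-08).

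The aryl hydrocarbon receptor, which binds indoles and other ligands, induces cytochrome P450 genes, and auxin is an indole. Whether auxin acted through this receptor here was not tested. Cyp1a1 had 75.1 and 38.4 after withdrawal, against 749 and 813 at 2 days and 74.5 and 49.8 in untreated cells (log2 change -3.84 ± 0.25 SE, adjusted p = 1.1e-07). Cyp1b1 had 13.4 and 13.8 after withdrawal, against 153 and 166 at 2 days and 13.6 and 14.2 in untreated cells (log2 change -3.46 ± 0.27 SE, adjusted p = 5.1e-07). Against untreated the log2 differences were -0.18 and -0.03 and did not pass. For Cyp1a1 that difference lay between -0.65 and 0.30 with 1 library left out. The rest of the list of 9 did not move as one, since 4 fell (3, 3, 3 and 2 with 1 library left out) and 2 rose in all. As shares of the list, 44.4% were lower and 22.2% higher, against 19.1% and 22.2% of all genes. Tiparp, another target of the receptor, rose with 1151 and 1103 after withdrawal, against 588 and 566 at 2 days (log2 change 0.96 ± 0.19 SE, adjusted p = 0.0011), as did Nqo1 with 1126 and 1066 after withdrawal, against 774 and 715 at 2 days.

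Other genes with the largest changes belonged to no list. Among those that rose, Myrf, a membrane-bound transcription factor, had 239 and 267 after withdrawal, against 5.67 and 8.9 at 2 days and 282 and 763 in untreated cells (log2 change 4.96 ± 0.36 SE, adjusted p = 2.5e-07). Aire, the autoimmune regulator, had 294 and 351 after withdrawal, against 15.2 and 17.5 at 2 days and 177 and 372 in untreated cells (log2 change 4.22 ± 0.32 SE, adjusted p = 4.5e-07). Aire (chromosome 10, 78030022 to 78043610, minus strand) overlaps Dnmt3l (78041947 to 78063622, plus strand), which rose too. Whether reads of Dnmt3l were counted for Aire was not tested. Loxl2, a collagen cross-linking oxidase, had 151 and 156 after withdrawal, against 14.3 and 12.2 at 2 days, and Pou2f3, a POU factor, had 305 and 332 after withdrawal, against 52.4 and 26.3 at 2 days. Myrf, Aire, Loxl2 and Pou2f3 were at low levels at 2 days, with no value above 60. Among those that fell, Serpine2, an inhibitor of serine proteases, had 99.03 and 126 after withdrawal, against 1890 and 1981 at 2 days and 131 and 74.2 in untreated cells (log2 change -4.10 ± 0.22 SE, adjusted p = 2.7e-08). Ahnak2, a very large scaffold protein, had 45.1 and 22.5 after withdrawal, against 659 and 765 at 2 days and 69.7 and 42.5 in untreated cells (log2 change -4.43 ± 0.3 SE, adjusted p = 1.6e-07), and Cpz, a carboxypeptidase, had 9.72 and 19.5 after withdrawal, against 301 and 317 at 2 days and 20.3 and 19.6 in untreated cells (log2 change -4.39 ± 0.31 SE, adjusted p = 2.2e-07). Matn1, a cartilage matrix protein, had 35.9 and 24.6 after withdrawal, against 503 and 480.3 at 2 days and 47.2 and 5.09 in untreated cells. In these 4 the withdrawal libraries lay below both 2 day libraries, as the naming rule required, and so did the untreated ones. The 1 day libraries were high as well, with 1422 and 1244 for Serpine2, 505 and 797 for Ahnak2, 217 and 259.6 for Cpz and 420 and 293 for Matn1.

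Changes at 1 day of auxin against untreated were set beside those after withdrawal, since the means of these comparisons share no library. Both come from the same fit, in which all 16 libraries set the spread. Of 2125 genes that were higher at 1 day, 1511 fell after withdrawal, which is 71.1% of those higher at 1 day and 59.1% of the 2556 that fell, and 10 rose. Of 2359 genes that were lower at 1 day, 1774 rose after withdrawal, 75.2% of those lower at 1 day and 59.9% of the 2960 that rose, and 11 fell. The median log2 change after withdrawal was -0.68 in genes higher at 1 day and 0.55 in those lower at 1 day. Most genes called at both points thus moved in opposite directions.

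**Figure D5:**
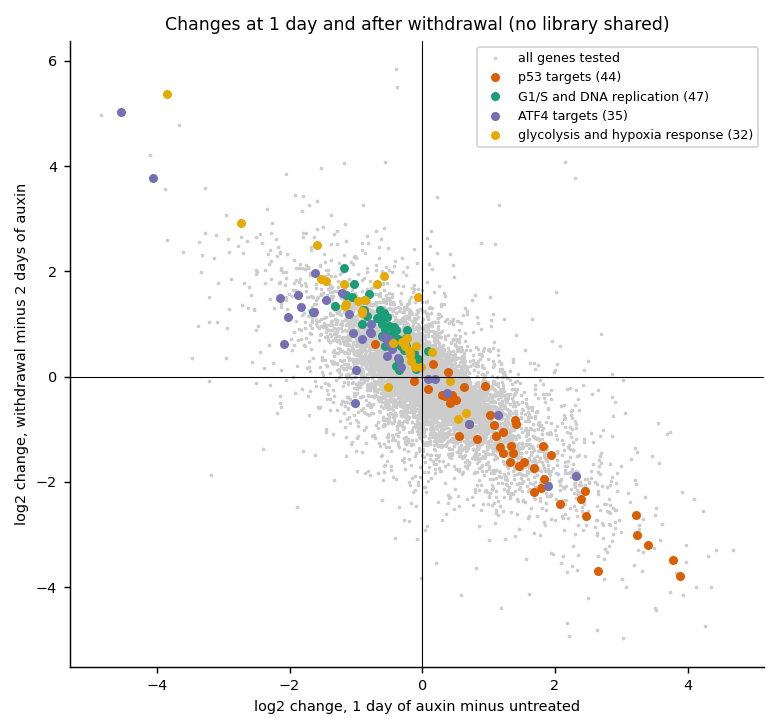
Log2 change of each gene tested at 1 day of auxin minus untreated (x axis) and after withdrawal minus 2 days (y axis), with 4 gene lists in colour. Points of the p53 list sit in the lower right and those of the replication list in the upper left.

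The distance to untreated cells was smaller after withdrawal than at 2 days. Withdrawal means differed from untreated by a median of 0.16 in log2, and 621 genes (4.65%) were at least 2-fold apart. Means at 2 days differed from untreated by a median of 0.40, with 2177 genes (16.3%) at least 2-fold apart. In the test 230 genes were higher after withdrawal than in untreated cells (1.72%) and 143 were lower (1.07%). These counts rest on libraries that vary. Without withdrawal replicates 1 and 2 they were 35 and 45 higher and 32 and 24 lower, and without untreated replicates 1 and 2 they were 721 and 204 higher and 385 and 178 lower. Because the untreated libraries differ more from each other than those of other groups, a gene that did not pass against untreated is not shown to have returned.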

How the data were processed

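Per the labels' protocols, mRNA was purified from total RNA of each sample and made into libraries with a VAHTS Universal V6 kit. The deposited values are a signal in normalized read counts, which the authors scaled between libraries before deposit, as judged from the table's name and its values. Per the submitters' processing notes, Trim Galore, STAR, RSEM and DESeq2 were used with the build mm10. The version and role of each tool, like the gene annotation, were not given in the sources used here. Whole reads could be recovered from low values for genes with 1 annotated transcript (72.5% to 99.1% of values within 0.1 of a whole multiple) but not for others (36.0% to 45.2%), so no count model was used. Intervals of depth cover counting error only.

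Values entered as log2(value + 1), a scale on which low genes appear to change less than they did. The tested genes (mean of 10 or more) were fitted in limma 3.58.1 under R 4.3.3 with a mean per group over all 16 libraries, an intensity trend and 8 residual degrees of freedom, and p-values were adjusted by Benjamini-Hochberg over the 13355 genes of a comparison. Simulated data with known changes were used to test the code. Positions are from GENCODE M21 on GRCm38, the assembly of mm10, which held 14467 of the identifiers. The 37 gene lists were written from general knowledge, and the comparison, the members and the lists were chosen with earlier results of these data known. Symbols of some lists overlap, and genes without a value are not analysed here.

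Genes were named by a rule: 16 fixed genes, up to 15 called genes with the largest change in each direction among those averaging 50 or more in the 4 libraries, no overlap between the groups and no predicted-gene name, and up to 6 members of each list with the smallest p. Not all of them are printed. Aldoc, Asns, Bnip3, Ddit3, Egln3, Fos, Mcm5, Mcm6, Ndrg1, Slc2a3, Trib3 and the markers below the minimum mean were chosen after their values were seen, as were the motifs other than TGATGNAA and GCGTG. Of these motifs, CACGTG was in 14 of 51 small subunit promoters (27.5%) and 8 of 45 large subunit promoters (17.8%), against 12.1% of all. TCACNCCAC was found in 1 of 20 promoters of sterol synthesis (5%), against 1.46% of all. Alternatives were no low-value filter or one at 50, pseudocounts of 0.5 and 5, scaling by upper quartiles or trimmed means of M values, a replicate block, the 4 libraries alone, library weights, removal of length and GC trends, and leaving out each library. Equal library totals, a fit without the libraries of 2 to 12 h, and leaving out libraries of the untreated and 1 day groups were added after the data were seen.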

Additional observations from a re-analysis of the deposited data

How the results depend on the processing

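As reported, 2960 genes were higher after withdrawal, 2556 genes were lower after withdrawal, and 3285 were genes that moved against their change at 1 day. With every withdrawal and 2 day library kept, the alternatives gave between 2008 and 3596 higher and between 1841 and 3636 lower. With 1 of the 4 libraries left out they gave between 2136 and 2291 higher and between 1740 and 1821 lower. The number that moved against their change at 1 day was 1780 with library weights, and the cause was not tested. It was 2153 without the 8 libraries of 2 to 12 h, a fit with fewer libraries behind the spread, and lay between 2622 and 3236 with 1 library left out. The 4 libraries alone give no value for it. Of the calls, 53.7% were higher as reported, 60.8% with length and GC trends removed and 35.6% with equal library totals.

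Libraries of the withdrawal and 2 day groups with the same replicate number did not deviate together (correlation -0.026 across genes). Neither this value nor the labels tell whether such libraries shared a culture or a preparation. With a replicate block, 2905 genes were higher after withdrawal, 2524 were lower, and 3208 were genes that moved against their change at 1 day. Of 148 named genes, 138 kept their direction and their side of the threshold under every alternative run for them. Esrrb, not called as reported, had a log2 change of 0.122 with length and GC trends removed, and the cause was not tested. Sox2, Nanog, Zfp42, Egr1, Sp5 and Dkk1 lost their call under at least 1 alternative, and Klf4, Asns and Mycn gained one. With 2 libraries per group and a median standard error of 0.16, small log2 changes could go undetected, most of all in genes near the minimum mean of 10.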

Other observations

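Signalling genes outside the comparisons above moved in both directions. Of 17 genes of the LIF and STAT3 pathway, which holds mouse stem cells in self-renewal, 5 were higher after withdrawal (3, 3, 3 and 3 with 1 library left out) and 2 lower (0, 1, 1 and 0 with 1 library left out), with a median log2 change of -0.08, where 22.2% and 19.1% of all genes were higher and lower, and with equal totals 2 were higher and 4 lower.

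Of 18 WNT target genes 3 were higher and 5 lower (3, 5, 3 and 1 with 1 library left out), with a median of -0.38. The WNT shares were 16.7% higher and 27.8% lower, against 22.2% and 19.1% of all genes. Notum, an enzyme that inactivates WNT ligands, had 798 and 773 after withdrawal, against 385 and 464 at 2 days and 585 and 469 in untreated cells (log2 change 0.89 ± 0.15 SE, adjusted p = 0.00031 in limma). Sp5, a repressor that WNT signals induce, had 31.4 and 30.96 after withdrawal, against 89.01 and 73.3 at 2 days and 101 and 45.8 in untreated cells (log2 change -1.34 ± 0.34 SE, adjusted p = 0.0062), and Dkk1, a secreted WNT inhibitor, had 6.73 and 7.47 after withdrawal, against 25.8 and 31.5 at 2 days and 12.4 and 4.07 in untreated cells (log2 change -1.87 ± 0.49 SE, adjusted p = 0.0077). The Sp5 call missed the threshold without 2 days replicate 1 (adjusted p = 0.05 after rounding) and the Dkk1 call without 2 days replicate 2 (adjusted p = 0.056). The activator CHIR99021 was in the medium of every group.

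Genes whose symbol is Zfp and a number, mostly zinc finger factors, were counted after their values were seen. Of 328 tested 59 were higher and 57 lower, with a median log2 change of -0.03, near the share of all genes.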
